A study of Homo sapiens with 12 samples.

Results

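The genes described here encode 9 secreted factors that cells release under stress, namely STC2, STC1, INHBE, INHBA, ADM2, ADM, GDF15, FGF21 and VEGFA, out of 58735 gene names in the count tables. They were picked by name as secreted factors tied to the integrated stress response, and they were chosen by their known behaviour after Erastin in these same samples, so their Erastin responses, their control levels and the differences between the lines are given as a description. Counts of calls among them stand only beside the share of all genes called. Bulk RNA-seq was performed on a pair of human neuroblastoma (NB) cell lines grown in RPMI with fetal bovine serum, KELLY, which carries an amplified MYCN gene, and SK-N-AS, which does not. Each line received either DMSO, the vehicle, or Erastin, which blocks cystine import through the cystine/glutamate antiporter and brings about ferroptosis, an iron-dependent form of cell death. The 4 groups of 3 samples each were KELLY with DMSO, KELLY with 1 µM Erastin, SK-N-AS with DMSO and SK-N-AS with 2 µM Erastin, all harvested after 24 h. The methods speak of wells seeded in triplicate and the series of biological replicates, and whether the 3 samples of a group are independent is not certain. Errors and p-values therefore measure only the spread between these samples, which may be technical. The Erastin dose differed between the lines, and dose and line cannot be told apart.

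The integrated stress response is set off when cells run short of amino acids or accumulate misfolded protein. Phosphorylation of eIF2α then slows general protein synthesis while translation of the transcription factor ATF4 goes up, and ATF4 switches on genes for amino acid uptake and synthesis together with a small set of secreted factors. Stanniocalcins (STC1 and STC2) are glycoprotein hormones first known from fish calcium control, and both inhibit the pappalysin proteases that release insulin-like growth factors from their binding proteins. INHBA and INHBE encode the activin A and activin E chains of the TGFβ family. Adrenomedullin (ADM) and adrenomedullin 2 (ADM2, also called intermedin) are peptides that act through the calcitonin receptor-like receptor. GDF15 and FGF21 are endocrine stress signals that reach the brain through GFRAL and β-klotho receptors, and VEGFA drives vessel growth and is a classical target of hypoxia-inducible factors.

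Promoter sequences were taken from RefSeq (build GRCh38.p14), whose table held 6 of the 9 genes. The 3 upstream stretches shown belong to STC2, the member with the most reads in SK-N-AS cells, to ADM2, and to FGF21, the only one of the 6 with a match to the ATF4-type element TGATGNAA. Each is written 5′ to 3′ on the gene's own strand, and capitals mark matches on either strand to TGATGNAA or to the hypoxia-inducible factor cores ACGTG and GCGTG. STC2 covers chr5:173328448-173328664 on the minus strand, ADM2 covers chr22:50481293-50481542 on the plus strand, and FGF21 covers chr19:48755274-48755523 on the plus strand. The STC2 stretch stops where the GENCODE gene begins.
STC2: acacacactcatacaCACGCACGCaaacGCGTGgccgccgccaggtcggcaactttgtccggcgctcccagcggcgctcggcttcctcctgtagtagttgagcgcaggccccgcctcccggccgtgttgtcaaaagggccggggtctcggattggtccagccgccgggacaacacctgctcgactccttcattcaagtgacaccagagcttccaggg
ADM2: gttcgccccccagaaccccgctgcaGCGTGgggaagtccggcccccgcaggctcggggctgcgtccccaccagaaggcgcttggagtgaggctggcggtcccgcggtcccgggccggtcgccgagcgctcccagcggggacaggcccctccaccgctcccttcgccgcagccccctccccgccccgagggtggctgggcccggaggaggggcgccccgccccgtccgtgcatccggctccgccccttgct
FGF21: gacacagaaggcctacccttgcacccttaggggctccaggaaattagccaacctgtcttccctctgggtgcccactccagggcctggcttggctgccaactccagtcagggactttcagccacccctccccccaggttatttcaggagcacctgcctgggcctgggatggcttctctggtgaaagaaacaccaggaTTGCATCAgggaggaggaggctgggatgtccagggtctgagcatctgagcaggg

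In the 300-base windows from 250 bases before to 50 bases after each RefSeq start, TGATGNAA was found in 3.67% of 27305 promoters and, among these 6 genes, in FGF21 alone, on the opposite strand with its first base 54 bases before the start. The core GCGTG was found in 36.3% of promoters, with 3 matches in STC2 (a pair of them sharing a base), 1 in ADM2 and 1 in ADM. The core ACGTG was found in 21.6% of promoters and in none of the 6 windows. The NRF2-type element TGACNNNGC was found in 13.6% of promoters and once in STC2, and the full endoplasmic reticulum stress element (ERSE) in 0.0806% of promoters and in none of the 6. These matches describe letters in a window and not bound sites.

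Library totals ran from 24169796 to 29835670 counts. Levels are given as read counts and as CPM, the standard library-size-scaled count, after TMM scaling. MYCN was at 5283 ± 358 CPM (SD, n = 3) in KELLY with DMSO and at 0.365 ± 0.0757 CPM in SK-N-AS with DMSO, which is on the side each line's MYCN status gives. All 11 adrenergic neuroblast markers had at least 10 counts in every library, and all 11 were higher in KELLY with DMSO than in SK-N-AS with DMSO (summed 4876 to 8411 CPM against 1174 to 1338 CPM). Of 9 mesenchymal-state markers, 8 were higher in SK-N-AS (summed 2691 to 2943 CPM against 270.4 to 347.4 CPM). The blood marker PTPRC, named after its values were seen, had 13241 to 16496 counts in the SK-N-AS DMSO libraries and 0 in KELLY, while CD3E, MS4A1 and LYZ were at 0 in both lines. Other markers of the same list of 11 blood or endothelial genes, also named after their values were seen, lay on either side. VWF had 69 to 84 counts in KELLY with DMSO and 2 to 6 in SK-N-AS with DMSO. HBB reached 208 and HBA2 178 counts in a KELLY DMSO library, and both were at 0 in SK-N-AS with DMSO. PECAM1 had 2 to 7 counts in SK-N-AS with DMSO and 0 in KELLY with DMSO. CD14 had 7 to 15 counts in SK-N-AS with DMSO, overlapping 0 to 8 in KELLY with DMSO. Libraries of 1 group also differed in how counts depended on the GC content of genes. In KELLY, the Spearman correlation across genes between GC content and a library's deviation from the mean of its line ran from −0.843 (DMSO replicate 1) to 0.871 (Erastin replicate 1). In SK-N-AS it ran from −0.773 (DMSO replicate 3) to 0.789 (DMSO replicate 1). Values with this trend removed are therefore given where they bear on a call. Fewer cells of a kind and less RNA per cell cannot be told apart in bulk samples.

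In KELLY cells, 4 of the 9 genes were higher with Erastin by the threshold of the study's methods (an unadjusted p up to 0.05 together with a change of 1.5-fold or more), namely STC2, INHBE, ADM2 and VEGFA. INHBA was lower, STC1 and GDF15 were not called, and ADM and FGF21 had too few reads to be tested. Over all 16258 genes tested in KELLY, 1.29% were called higher and 0.744% lower. In edgeR with its default filter, STC2 was the only gene of the whole table called at a Benjamini-Hochberg adjusted p under 0.05 (0.00615%). Which members were called at that level depended on the tool and the filter, as given below. With the GC trend removed STC2, INHBE, ADM2 and VEGFA were all called higher, against 0.191% of genes, and 0% of genes were called lower. Every Erastin sample lay above every DMSO sample for those 4 genes, against 4.2% of all genes, and below for INHBA, against 4.34%.

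In SK-N-AS cells, 8 of the 9 were tested, and INHBE and ADM2 were higher and STC1 lower by the same threshold, where 1.34% of 16095 genes were called higher and 1.33% lower. STC2 came out at 1.49-fold, just under the required fold. At an adjusted p under 0.05, 4 members were called, STC2, INHBE and ADM2 as higher and STC1 as lower, against 0.659% of all genes in either direction. With the GC trend removed VEGFA joined the genes called higher (2.42% of genes), and STC1 was again called lower (3.13% of genes). Every Erastin sample lay above every DMSO sample for STC2, INHBE, ADM2 and VEGFA, against 6.98% of genes, and below for STC1, against 7.81%. Because these responses were what the genes were chosen by, nothing is read from the counts.

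**Figure D1:**
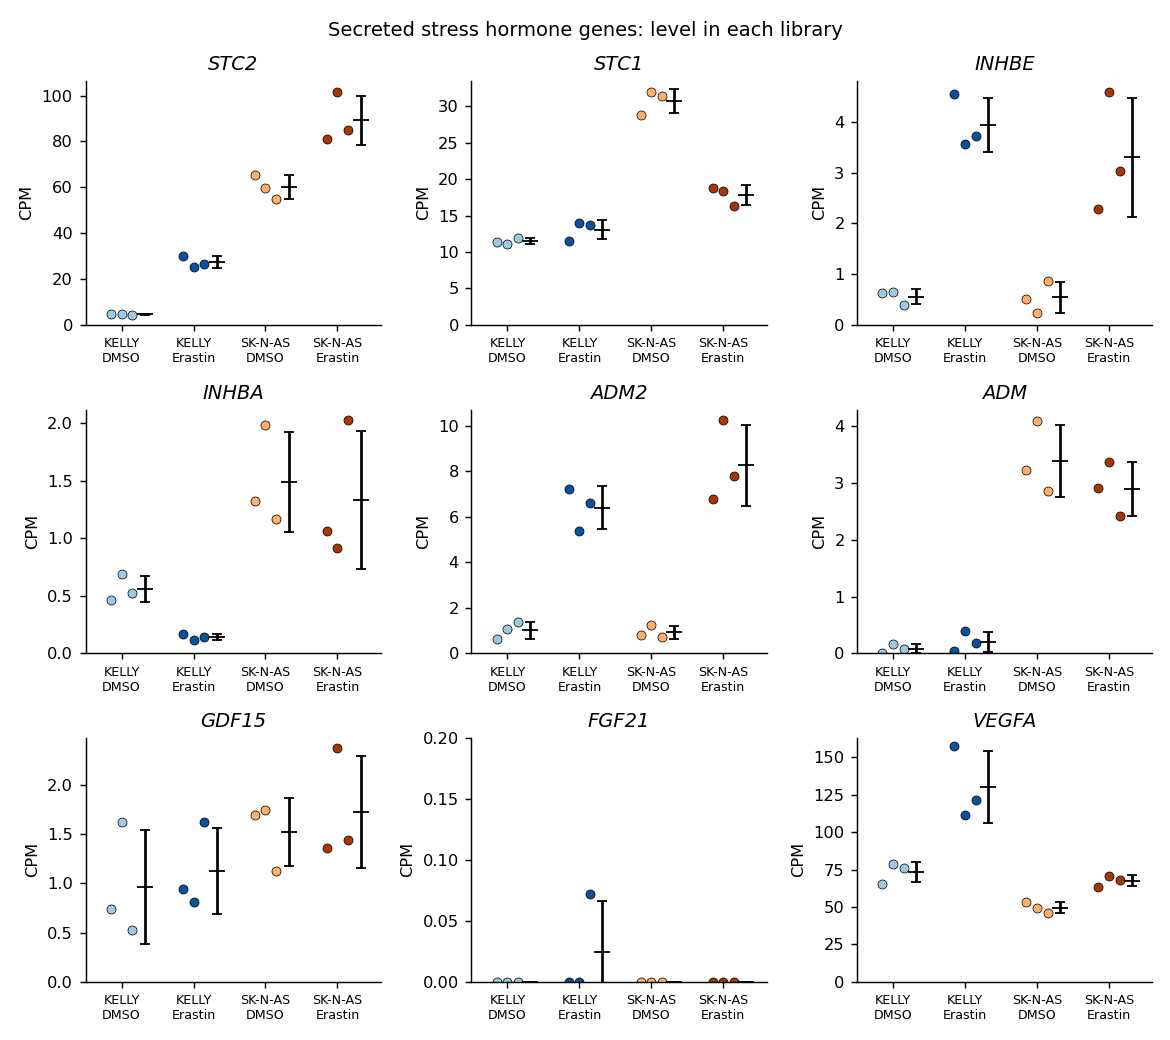
Level of each of the 9 genes in TMM-scaled CPM (vertical axes, each from 0 and with its own scale) in the 12 libraries; points are single libraries of the 4 groups, and the bar beside them is the mean ± SD (n = 3). STC2, INHBE, ADM2 and VEGFA sit higher with Erastin in both lines, STC1 sits lower with Erastin in SK-N-AS, and FGF21 is at 0 in 11 of 12 libraries.

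STC2 (ENSG00000113739, chr5:173314723-173328447 on the minus strand, GRCh38) encodes stanniocalcin 2, the stanniocalcin known as an ATF4 target. The KELLY controls held 122, 115 and 121 counts, and the treated KELLY cells 736, 650 and 732. The level went from 4.55 ± 0.277 CPM to 27.3 ± 2.59 CPM (SD, n = 3), a log2 fold change of 2.59 ± 0.18 (SE) or 6.01-fold. The 3 treated libraries were all far above the 3 controls. SK-N-AS controls had 1783, 1504 and 1466 counts and treated cells 2199, 2985 and 2183, or 60.1 ± 5.26 CPM against 89.2 ± 10.9 CPM. The log2 fold change was 0.58 ± 0.11, so that the groups did not overlap but differed by less than in KELLY. KELLY cells with Erastin remained below SK-N-AS cells with DMSO, at 0.454 of the SK-N-AS level, and no library of the former reached any of the latter. Leaving out single samples moved the log2 fold change from 2.50 to 2.64 in KELLY, and from 0.48 to 0.65 for SK-N-AS. At an adjusted p under 0.05 STC2 was called in 12 of 17 alternatives in KELLY and in 13 of 17 in SK-N-AS. The KELLY call was lost without any 1 of the 3 DMSO samples, without Erastin replicate 3 and in 1 other alternative. The SK-N-AS call was lost without DMSO replicate 2, Erastin replicate 2 or Erastin replicate 3, and in a fit over all 12 samples.

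STC1 (ENSG00000159167) encodes stanniocalcin 1, its paralog. KELLY controls had 294, 273 and 340 counts, treated cells had 282, 359 and 378, and the groups overlapped (11.5 ± 0.402 CPM against 13.1 ± 1.29 CPM). The log2 fold change was 0.19 ± 0.16. In SK-N-AS cells STC1 went the other way from STC2. Controls had 783, 805 and 834 counts and treated cells 509, 540 and 418, or 30.7 ± 1.68 CPM against 17.8 ± 1.33 CPM. The log2 fold change was −0.78 ± 0.10, which is 1.71-fold lower, and every treated library was below every control.

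Per kilobase of exon (5.062 kb for STC2 and 4.134 kb for STC1), the level of STC2 relative to that of STC1 was 0.325 ± 0.0295 in KELLY with DMSO and 1.73 ± 0.351 with Erastin (SD, n = 3). In SK-N-AS it was 1.61 ± 0.223 with DMSO and 4.10 ± 0.513 with Erastin. STC1 was thus the more abundant stanniocalcin in untreated KELLY cells, and STC2 in the other groups. The ratio of KELLY with Erastin, 1.48 to 2.13 over its libraries, overlapped that of SK-N-AS with DMSO, 1.44 to 1.86, although both genes were at lower levels in KELLY.

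**Figure D2:**
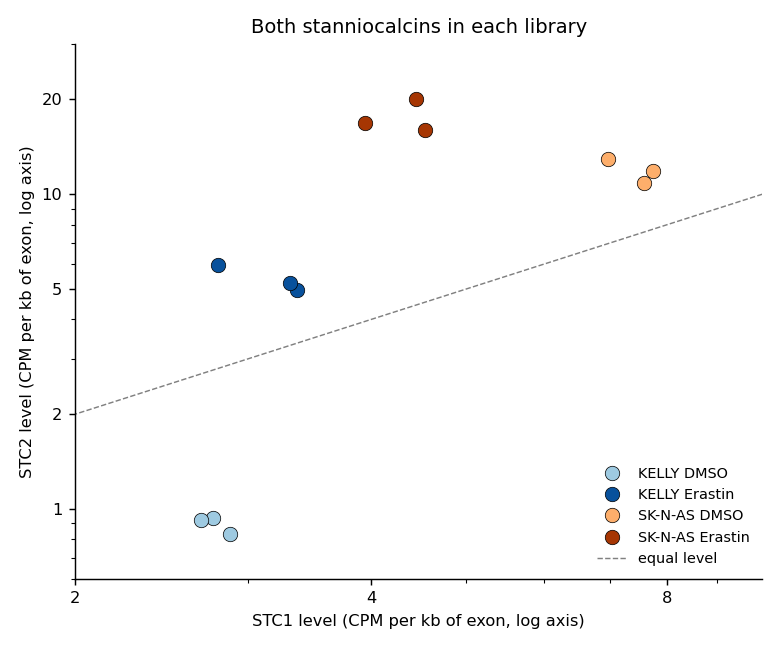
STC2 level against STC1 level in each of the 12 libraries, in CPM per kilobase of exon on log axes; the dashed line marks equal levels of both genes. The 3 KELLY DMSO libraries lie below the line (ratio 0.291 to 0.344) and the other 9 above it; with Erastin the KELLY points move up, and the SK-N-AS points move up and to the left.

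The difference between the responses of the lines (SK-N-AS minus KELLY, from a fit over all 12 samples) was −2.02 ± 0.19 (SE) on the log2 scale for STC2 and −0.97 ± 0.18 for STC1. Both stanniocalcins thus had the lower response in SK-N-AS, by 4.04-fold for STC2 and 1.96-fold for STC1. These differences were part of the choice of both genes and are a description. With the GC trend removed they were −1.94 and −1.08. For the other members the differences were −0.24 ± 0.56 for INHBE, 1.79 ± 0.59 for INHBA, 0.52 ± 0.41 for ADM2, −0.06 ± 0.60 for GDF15 and −0.38 ± 0.20 for VEGFA. ADM had a difference of −1.60 ± 0.89, which rests on 6 control and 16 treated KELLY reads.

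INHBE (ENSG00000139269, chr12:57452323-57459280 on the plus strand) encodes the activin βE chain, a liver-enriched member of the TGFβ family. KELLY controls had 16, 16 and 11 counts and treated KELLY cells 111, 92 and 103, or 0.552 ± 0.146 CPM against 3.95 ± 0.529 CPM. The SK-N-AS controls had 14, 6 and 23 and the treated cells 62, 135 and 78, or 0.539 ± 0.314 CPM against 3.31 ± 1.18 CPM. The lines thus started from and arrived at overlapping levels, with log2 fold changes of 2.84 ± 0.30 in KELLY and 2.61 ± 0.38 in SK-N-AS. Its exons share 499 bases (16.4% of their length) with the antisense lncRNA ENSG00000287200. How the counting treated strand is not given in the sources used here, so reads from that stretch cannot be assigned.

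INHBA (ENSG00000122641, chr7:41667168-41705834 on the minus strand) encodes the activin βA chain, whose dimer is activin A. The counts were 12, 17 and 15 in KELLY controls but 4, 3 and 4 after treatment, all treated libraries below all controls at 0.142 ± 0.0240 CPM against 0.560 ± 0.116 CPM. The log2 fold change was −1.95 ± 0.46, on 44 reads in all for the controls and 11 for the treated cells. In SK-N-AS, control counts of 36, 50 and 31 overlapped treated counts of 29, 27 and 52, with a log2 fold change of −0.15 ± 0.34 whose sign changed when single samples were left out (−0.57 to 0.11). By the methods' threshold the activin chains therefore went opposite ways in KELLY. At an adjusted p under 0.05 INHBA was not called there with all samples, nor in any of the alternatives (0 of 16), and its treated libraries held at most 4 counts. The antisense gene INHBA-AS1, which shares 248 exonic bases, had at most 2 counts in any library.

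ADM2 (ENSG00000128165, chr22:50481543-50486440 on the plus strand) encodes adrenomedullin 2. Counts were 16, 26 and 39 in KELLY controls, against 176, 139 and 183 in treated KELLY cells, or 1.01 ± 0.373 CPM against 6.41 ± 0.934 CPM. SK-N-AS controls had 22, 31 and 19, and treated cells 184, 301 and 200, or 0.918 ± 0.276 CPM against 8.27 ± 1.78 CPM. As with INHBE, control and treated levels of the lines overlapped. The log2 fold change was 2.65 ± 0.31 in KELLY, 2.30 there with the GC trend removed, and 3.18 ± 0.24 in SK-N-AS, where 9.08-fold was the highest value among the members in that line. The exons of ADM2 share 131 bases (3.05%) with the antisense gene SBF1, which had 2195 to 12669 counts per library.

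ADM (ENSG00000148926, chr11:10305073-10307397 on the plus strand) encodes adrenomedullin, a vasodilator peptide and well-known hypoxia target. It was nearly silent in KELLY, with 0, 4 and 2 counts under DMSO and 1, 10 and 5 under Erastin, and was not tested there. In SK-N-AS the controls had 88, 103 and 76 counts and the treated cells 79, 99 and 62. Those groups overlapped, and the log2 fold change was −0.21 ± 0.20. In the same SK-N-AS libraries ADM2 was thus higher with Erastin in every sample while ADM overlapped its controls.

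GDF15 (ENSG00000130513, chr19:18374731-18389176 on the plus strand) encodes a TGFβ-family cytokine that signals sickness and nutrient stress. Its counts were low and scattered, with 19, 40 and 15 in KELLY controls against 23, 21 and 45 in treated cells. In SK-N-AS the controls had 46, 44 and 30 and the treated cells 37, 70 and 37. Control and treated libraries overlapped whichever the line. GDF15 had log2 fold changes of 0.24 ± 0.50 in KELLY and 0.20 ± 0.28 in SK-N-AS, and with single samples left out they ran from −0.13 to 0.84 and from −0.10 to 0.35. FGF21 (ENSG00000105550, chr19:48755524-48758333 on the plus strand), a hepatic fasting hormone, was at 0 in 11 libraries and had 2 counts in KELLY with Erastin replicate 3. A count of 0 allows up to 3 counts, or 0.101 to 0.124 CPM depending on the library, a limit for counting error only, so no fold change is given, and a response of FGF21 was not detectable at this depth.

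VEGFA (ENSG00000112715, chr6:43770184-43786487 on the plus strand) encodes the vascular endothelial growth factor A. KELLY controls had 1687, 1937 and 2170 counts and treated cells 3838, 2881 and 3360, or 73.4 ± 6.90 CPM against 130.2 ± 24.1 CPM. SK-N-AS controls had 1452, 1244 and 1217 and treated cells 1722, 2086 and 1748, or 49.5 ± 3.84 CPM against 67.5 ± 3.80 CPM. Treated libraries were above controls in KELLY and in SK-N-AS. Log2 fold changes of VEGFA were modest beside those of ADM2 and INHBE, at 0.83 ± 0.18 in KELLY (0.63 with the GC trend removed) and 0.46 ± 0.09 in SK-N-AS. With Erastin, VEGFA remained higher in KELLY than in SK-N-AS in every library.

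**Figure D3:**
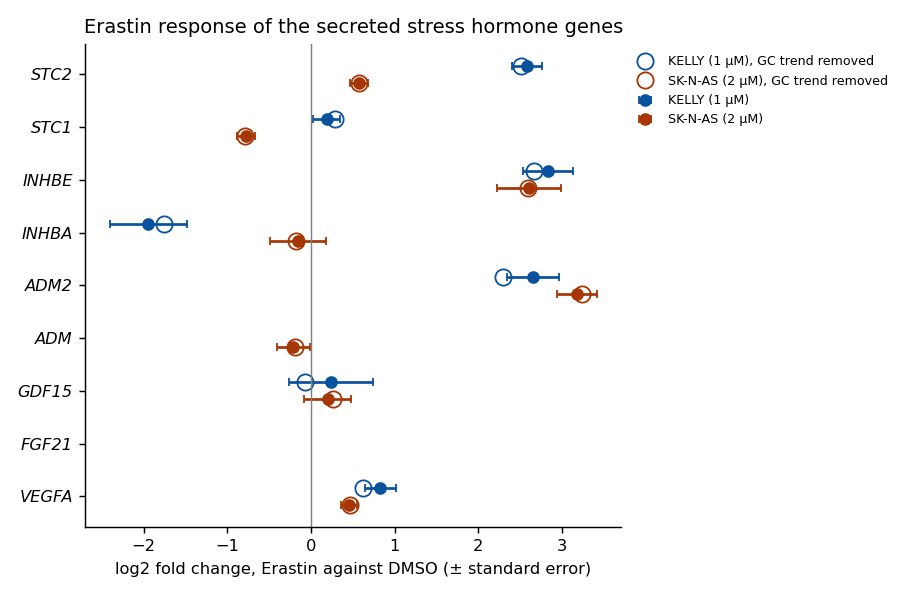
Log2 fold change of Erastin against DMSO (horizontal axis) for each gene, from edgeR; filled points with bars are values ± SE, open circles the same with the GC trend of the libraries removed, blue for KELLY at 1 µM and brown for SK-N-AS at 2 µM (n = 3 against 3). INHBE and ADM2 lie above 2 in both lines, STC2 does so in KELLY only (2.59 against 0.58), and genes too low to test have no point.

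Control levels between the lines were among the values the genes were picked for, so they too are a description. They compare cultures of 1 line on each side, not NB lines with and without MYCN amplification. Of the 8 genes measured well enough, 4 were called higher in SK-N-AS with DMSO (STC2, STC1, INHBA and ADM) and VEGFA was called higher in KELLY, by an adjusted p under 0.05 in edgeR's quasi-likelihood test over 17089 genes. By that rule 30.3% of all genes were higher in SK-N-AS and 30.9% in KELLY, and nothing is read from the members' count. The control level of STC2 was higher in SK-N-AS by 3.71 ± 0.16 (SE) on the log2 scale, or 13.1-fold, and that of STC1 by 1.41 ± 0.15, or 2.65-fold. For both stanniocalcins all 3 SK-N-AS libraries were above all 3 KELLY libraries.

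The control level of ADM was 5.38 ± 0.55 higher in SK-N-AS, on 267 counts there and 6 counts in KELLY. Leaving out single samples moved this value from 4.83 to 6.35 with so few KELLY counts behind it. INHBA was 1.39 ± 0.36 higher in SK-N-AS, a call lost without SK-N-AS DMSO replicate 2 (1.14). VEGFA was lower in SK-N-AS by −0.58 ± 0.14, every library of SK-N-AS being below every library of KELLY. INHBE (−0.04 ± 0.50) and ADM2 (−0.16 ± 0.39) overlapped between the lines and were not called. GDF15 was at 0.66 ± 0.44, uncalled with all samples and called without KELLY DMSO replicate 2, its highest control library (1.25). The marker sums of the lines moved with these differences, and their part in them was not tested.

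**Figure D4:**
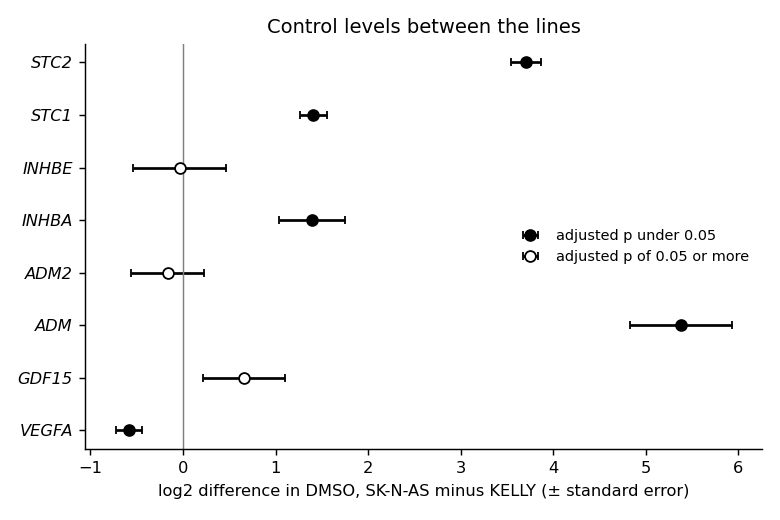
Log2 difference of control levels (SK-N-AS with DMSO minus KELLY with DMSO, horizontal axis, ± SE, n = 3 against 3) for the 8 genes fitted; filled points are those called at an adjusted p under 0.05. STC2 (3.71) and ADM (5.38) lie farthest to the right and VEGFA (−0.58) to the left of 0, while INHBE and ADM2 sit near 0.

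To set the genes beside each other, levels were divided by the merged length of the annotated exons of all transcripts of a gene. That length was 14.431 kb for VEGFA, 5.062 kb for STC2 and 4.134 kb for STC1. In KELLY with DMSO, VEGFA was first at 5.08 ± 0.479 CPM per kb, followed by STC1 at 2.77 ± 0.0972 and STC2 at 0.898 ± 0.0547, each apart from its neighbour. GDF15, ADM2 and INHBE came next at 0.461, 0.236 and 0.181 CPM per kb, each overlapping its neighbour, and INHBA (0.0676), ADM (0.0333) and FGF21 (0) closed the order. With Erastin STC2 stood above STC1 in KELLY (5.39 ± 0.511 against 3.16 ± 0.313 CPM per kb), and ADM2 (1.49) and INHBE (1.30) stood above GDF15 (0.541). In SK-N-AS with DMSO the order began with STC2 at 11.9 ± 1.04 CPM per kb, STC1 at 7.43 ± 0.407 and VEGFA at 3.43 ± 0.266, again without overlap. ADM (1.46) and GDF15 (0.729) followed, and ADM2 (0.214), INHBA (0.180) and INHBE (0.177) overlapped their neighbours. With Erastin, STC2 stood alone at 17.6 ± 2.14 CPM per kb, VEGFA (4.68) and STC1 (4.31) overlapped, and ADM2 (1.93) came before ADM (1.25) in the order. The place of VEGFA relative to STC1 in SK-N-AS rested on the exon lengths used. A merged length can exceed that of the transcripts present, and a shorter length for VEGFA would also raise it relative to STC2. Undivided STC2 means in SK-N-AS were 60.1 CPM with DMSO and 89.2 CPM with Erastin. Before division by length, VEGFA was above STC1 in every SK-N-AS library. The VEGFA mean was 49.5 CPM against 30.7 CPM for STC1 with DMSO, and 67.5 against 17.8 CPM with Erastin.

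Over the 12 samples, the genes whose log2 CPM ran most like that of STC2 among 12358 genes were HK2 (Pearson r = 0.975), ASS1 (0.969), MPPE1 (0.967), SEMA4F (0.962) and NBR2 (0.961). HK2 is a hexokinase that is also in the hypoxia list described below. Its mean levels were 103.8, 134.3, 149.4 and 151.3 CPM in KELLY DMSO, KELLY Erastin, SK-N-AS DMSO and SK-N-AS Erastin. ASS1, which makes argininosuccinate, had 100.5, 308.7, 993.9 and 988 CPM. Genes alike to STC1 included VAT1L (0.959), DCLK2 (0.956), PNP (0.951) and HBEGF (0.943). HBEGF, a ligand of the EGF receptor, had 3.68, 4.29, 10.7 and 7.75 CPM in the same order, thus high in SK-N-AS controls and lower with Erastin, as STC1 was. The samples fall into 4 groups of the same lines and treatments, so these coefficients only describe which profiles look alike.

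The other genes of these pathways are described by lists that were drawn up with results of these data known. The stress response list holds 29 transcription factors and target genes of ATF4 and its partners. In KELLY, 19 of the 28 tested were called higher with Erastin by the methods' threshold and 0 lower, beside 1.29% and 0.744% of all genes. The median log2 fold change was 0.89 beside 0.005 over all genes. None passed an adjusted p under 0.05 in this edgeR fit, at which the table held only STC2. With the GC trend removed 17 did, all as higher, beside 0.191% of all genes. Among them GARS and MARS had no GC value and took the median correction of each library. CHAC1, a glutathione-degrading enzyme, was 2.94 ± 0.30 higher (edgeR adjusted p = 0.0902), ASNS, asparagine synthetase, 1.61 ± 0.19 (adjusted p = 0.114), SESN2, a brake on mTORC1, 1.70 ± 0.26 (adjusted p = 0.342) and the transcription factor ATF3 1.02 ± 0.16 (adjusted p = 0.342). In SK-N-AS, 23 of 29 were called higher and 0 lower, beside 1.34% and 1.33% of all genes. Of these, 22 were also called at an adjusted p under 0.05, beside 0.659% of all genes in either direction. The median was 1.07 beside −0.009 over all genes. There CHAC1 rose by 4.56 ± 0.23, PHGDH, the entry enzyme of serine synthesis, by 3.76 ± 0.20 and SLC7A11, the cystine transporter subunit that Erastin targets, by 2.01 ± 0.11 (edgeR adjusted p = 1.54e-06 for each).

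ATF4 itself was 0.81 ± 0.19 higher in KELLY (adjusted p = 0.770, and 0.0350 with the GC trend removed) and rose by 1.51 ± 0.09 in SK-N-AS (adjusted p = 5.16e-06). Its control level was lower in SK-N-AS by −1.38 ± 0.17 (adjusted p = 0.000129), the opposite side from STC2. DDIT3, the stress factor CHOP, was at 0.75 ± 0.41 in KELLY and 0.54 ± 0.18 in SK-N-AS, without passing (adjusted p = 0.770 and 0.343). Of the 28 stress genes tested between the controls, 6 were higher in SK-N-AS and 16 in KELLY, where 30.3% and 30.9% of all genes were.

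Because VEGFA, ADM and STC2 are also known as hypoxia-responsive genes, a list of 28 other hypoxia targets was followed. In KELLY, 1 of the 26 tested was called higher and 0 lower, beside 1.29% and 0.744% of all genes, with a median of 0.097. The gene called was NDRG1, a stress and differentiation gene, at 0.83 ± 0.25 (edgeR adjusted p = 0.770). Every KELLY Erastin sample lay above every DMSO sample for NDRG1 and for HK2, SLC2A1 and P4HA2, which were not called, against 4.2% of all genes. In SK-N-AS, 0 of 27 were called in either direction, beside 1.34% of all genes as higher and 1.33% as lower, with a median of 0.003. Every SK-N-AS Erastin sample lay above every DMSO sample for BNIP3L, EGLN3 and PDK1, against 6.98% of all genes. All lay below for CA12, EGLN1, LOX, SLC2A3 and LDHA, against 7.81%. These 8 are named after their values were seen. With the GC trend removed, 3 passed an adjusted p under 0.05 in SK-N-AS as higher and 2 as lower, beside 2.42% and 3.13% of all genes. In KELLY 0 passed in either direction, beside 0.191% of all genes as higher and 0% as lower. Neither factor was called by the methods' threshold. HIF1A was at −0.51 in KELLY and 0.11 in SK-N-AS (adjusted p = 0.770 and 0.855), and EPAS1, which encodes HIF-2α, at 0.31 and 0.51 (adjusted p = 0.770 and 0.125). With the GC trend removed EPAS1 passed in SK-N-AS (0.51, adjusted p = 0.00373), where every treated sample was above every control. EPAS1 differed widely between the controls, being lower in SK-N-AS by −5.16 (adjusted p = 1.36e-07). Of the 27 hypoxia targets tested between the controls, 15 were higher in SK-N-AS and 8 in KELLY, beside 30.3% and 30.9% of all genes.

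Among 21 receptors and co-receptors of these hormones, 15 had at least 10 counts in every KELLY DMSO library and 17 in every SK-N-AS one, while the GDF15 receptor GFRAL was at 0 in all 12. In KELLY, 0 of the 16 tested were called with Erastin, where 1.29% of all genes were called higher and 0.744% lower. In SK-N-AS, 1 of 17 was called lower and 0 higher, beside 1.33% and 1.34% of all genes. The gene called was the VEGF receptor KDR at −0.65 ± 0.13 (edgeR adjusted p = 0.0521, and 0.00378 with the GC trend removed). At an adjusted p under 0.05, passed by 0.659% of all genes, FLT1, another VEGF receptor, fell by 0.48 ± 0.09 (edgeR adjusted p = 0.0208). FLT1 is named after its values were seen. Leaving out single samples moved the SK-N-AS receptors called from 0 (without Erastin replicate 3) to 2. Between the controls, 9 of 18 receptors were higher in SK-N-AS and 6 in KELLY, beside 30.3% and 30.9% of all genes.

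Of the binding partners, a list of 11 activin antagonists, inhibitory SMADs, pappalysins and the IGF-binding proteins they cut, 0 of 9 tested were called in KELLY. In SK-N-AS, 2 of 9 were called lower and 0 higher. The shares over all genes were 1.33% lower and 1.34% higher there, and 0.744% lower and 1.29% higher in KELLY. IGFBP5, a pappalysin substrate, fell by 1.12 ± 0.13 (edgeR adjusted p = 0.00105), and follistatin (FST), the activin antagonist, was at −0.82 ± 0.24 (adjusted p = 0.217, and 0.0457 with the GC trend removed), a call lost without SK-N-AS DMSO replicate 2. The pappalysin gene PAPPA, the protease that stanniocalcins inhibit, named here after its values were seen, was at −0.45 ± 0.11 in SK-N-AS (adjusted p = 0.147, and 0.00936 with the GC trend removed) and at −0.35 ± 0.43 in KELLY (adjusted p = 0.778). PAPPA was 5.18 ± 0.29 higher in SK-N-AS controls (adjusted p = 1.08e-06), the line that also had more STC1 and STC2. The pappalysin gene PAPPA2 lay on the other side, with 5 to 13 counts in KELLY with DMSO and 0 to 4 in SK-N-AS with DMSO. Its reads were too few to be tested. Of the 10 partners tested between the controls, 7 were higher in SK-N-AS and 2 in KELLY, beside the same 30.3% and 30.9%.

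Other ligands of the same families and the enzymes that mature prohormones were not called with Erastin in either line. For the ligands this was 0 of 9 tested in KELLY and 0 of 6 in SK-N-AS, and for the enzymes 0 of 7 and 0 of 6, with medians of 0.034 and −0.165 and of 0.04 and −0.103. Over all genes 1.29% were called higher and 0.744% lower in KELLY, and 1.34% and 1.33% in SK-N-AS. Between the controls, 3 of 9 ligands were higher in SK-N-AS and 4 in KELLY, and 4 of 6 enzymes were higher in SK-N-AS and 2 in KELLY. With 30.3% and 30.9% of all genes called, nothing is read from these counts. PAM, which amidates adrenomedullin peptides, was 3.20 ± 0.13 higher in SK-N-AS (edgeR adjusted p = 2.02e-07) and is named after its values were seen.

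**Figure D5:**
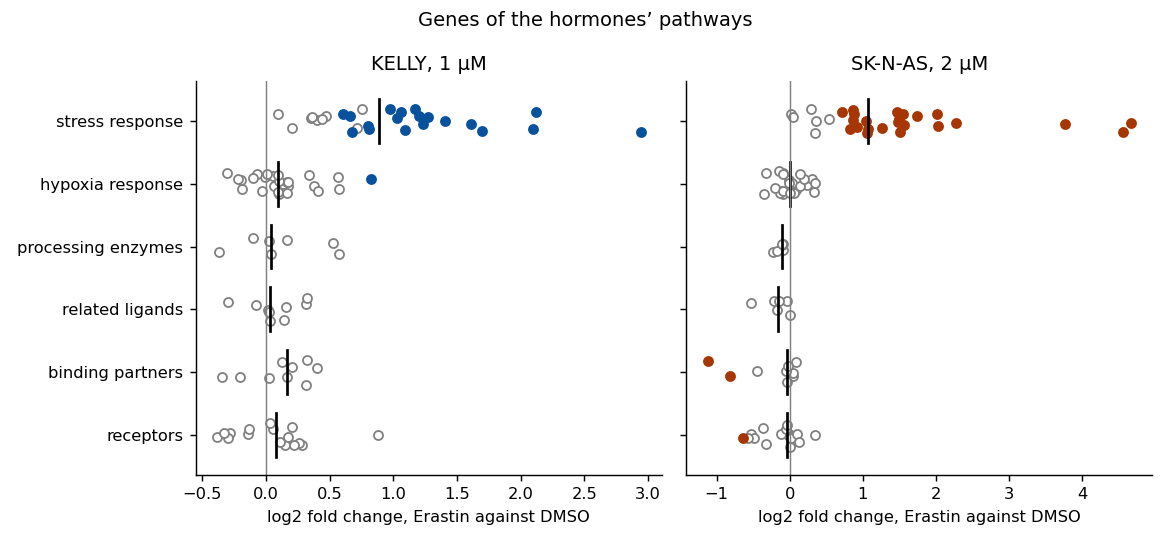
Log2 fold change of Erastin against DMSO (horizontal axis) of the tested genes of each list in KELLY and in SK-N-AS; filled points were called by the methods' threshold (unadjusted p up to 0.05, 1.5-fold or more), and black bars are list medians. In the stress response list 19 points are filled for KELLY and 23 for SK-N-AS, all to the right of 0, while the other lists center near 0.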

How the data were processed

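Bulk RNA-seq data of 12 samples were used. The authors trimmed the reads and counted them per gene on GRCh38 (Trimmomatic and HTSeq per the labels); the deposited tables, 1 for each line, hold raw read counts with no normalization, and the counter's strand setting is not given in the sources used here. Gene positions came from GENCODE on the same build. Counts were tested in R 4.3.3 with edgeR 4.0.16 (TMM scaling, filterByExpr, quasi-likelihood test, Benjamini-Hochberg adjustment over all genes tested), for each line (16258 and 16095 genes), between the DMSO samples (17089) and for the difference in response over all 12 samples (18239). The scripts were tested on simulated data. A trend of counts with GC content, fitted for each library by loess, was removed in 1 alternative. Other alternatives used other scalings and filters, DESeq2 1.42.0, limma-voom (limma 3.58.1), a replicate block and each sample left out.

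The 9 genes and all lists were chosen with earlier results of these data known. Named were all 9, up to 4 genes per list and line called with the smallest p, ATF4, DDIT3, HIF1A and EPAS1, the 5 genes most like STC2 or STC1 where the mean log2 CPM reached 1 (1 of these is not reported here), and MYCN. Samples were grouped by the labels. No pair of samples had identical counts (0 pairs).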

Additional observations from a re-analysis of the deposited data

Results flagged for a closer look

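The response of STC2 to Erastin differed between the lines by −2.02 on the log2 scale (SK-N-AS minus KELLY) and is listed here because the lines moved by different amounts. STC2 was chosen with this difference known, so the value is a description and no test of it is given. The lines also received different doses, which cannot be told apart from the line.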

How the results depend on the processing

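The number of members called in KELLY was 5 by the methods' threshold and 1 at an adjusted p under 0.05; it was 5 in each fit that left out a sample. In SK-N-AS it was 3, and 3 to 4 with a sample left out. Between the controls it was 5, and 4 to 6 with a sample left out. The STC1 response difference was −1.08 with the GC trend removed, with or without a replicate block, against −0.97 as reported, and −1.06 to −0.91 with a sample left out; that of STC2 ran from −2.12 to −1.94. At an adjusted p under 0.05, INHBE and ADM2 were each called in 4 of 17 alternatives in KELLY and VEGFA in 2, while VEGFA was called in 8 of 17 in SK-N-AS. For INHBE and ADM2 the 4 were DESeq2, no filter on low counts, GC correction and a fit over all 12 samples. For VEGFA in KELLY the 2 were DESeq2 and GC correction. Of these settings, the share of all genes called is given here for GC correction only. By the methods' threshold STC2 was called in 4 of 17 in SK-N-AS, and the controls' VEGFA in 5 of 17. Some values that were never called by the methods' threshold, such as those of GDF15 in both lines and INHBA in SK-N-AS, changed sign. Others that were never called by it kept their sign. These included VEGFA in SK-N-AS (0.40 to 0.51), STC1 in KELLY (0.14 to 0.30) and ADM in SK-N-AS (−0.33 to −0.06). INHBA in KELLY ran from −2.06 to −1.74. Of 306 list counts 15 moved by over 1.5 times, all between 0 and 2 genes except 1 of the related ligands between the controls (4). Same-numbered DMSO and Erastin samples had deviation correlations of −0.487 to −0.036 in KELLY and −0.008 to 0.122 in SK-N-AS. Whether the sample numbers pair the samples cannot be decided from these values, since the deviations also follow each library's GC trend. In KELLY the correlation with GC content was −0.843 for DMSO replicate 1 and 0.871 for Erastin replicate 1. By the thresholds of the report the replicate block left 5, 3 and 5 members called in KELLY, SK-N-AS and the controls. At an adjusted p under 0.05 it ended the call of STC2 in KELLY, and the calls of INHBE, ADM2 and VEGFA made there with the GC trend removed were absent once the block was added, while STC2 was called. With at least 10 counts required in every sample, INHBE in SK-N-AS and in the controls and INHBA in KELLY could not be fitted. Depth limits ADM in KELLY and FGF21 in every group.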
